A study of Mus musculus with 4 samples.

Results

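A set of 9 genes, of phosphatidylinositol (PI) synthesis and remodelling and with the gene next to the targeted one, was followed in mouse liver: Mboat7, Mboat1, Mboat2, Lpcat3, Lclat1, Tmc4, Cds1, Cds2 and Cdipt. They were chosen by name, and their probes were found through the transcript record that each array probe carries. These 9 genes, of 23462 with a matched probe, had 15 of the 33767 matched probes. On every array 12 of the 15 probes were well above background, and the other 3 were so on none, so that 7 genes have values and 2, Mboat2 and Cds1, do not.

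PI is made in the endoplasmic reticulum in a pair of steps: a CDP-diacylglycerol synthase (CDS1 or CDS2) activates phosphatidic acid, and PI synthase (CDIPT) joins the product to inositol. Its acyl chains are then exchanged in a deacylation and reacylation cycle. MBOAT7, also called LPIAT1, puts arachidonic acid back onto lysophosphatidylinositol, which gives PI its typical arachidonate. Other acyltransferases act on other lysophospholipids or at the other position: MBOAT1 and MBOAT2 mostly use oleate, LPCAT3 puts polyunsaturated chains on phosphatidylcholine and phosphatidylethanolamine, and LCLAT1 (also LYCAT) sets the stearate of PI and remodels cardiolipin.

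Liver total RNA of male mice aged 24 weeks, on a C57BL/6 background, was hybridised to 4 one-colour arrays, 1 for each of 4 conditions. All mice carried the floxed Lpiat1 (Mboat7) allele, without Cre (F/F) or with Cre driven by the albumin promoter (LKO), and from 6 weeks of age they were fed either standard chow (CE2) or a high fat diet (HFD; HFD-60) for 18 weeks. The albumin promoter drives Cre in hepatocytes, and the paper describes the knockout as hepatocyte-specific. Whether the other cells of an LKO liver keep the gene was not measured here. Whether an array holds the RNA of 1 mouse or of several is not given in the sources used here, and with 1 array per condition no difference within a diet or genotype has a replicate check or a test. A genotype difference taken over both diets was tested with limma in a model of genotype and diet. Its 1 residual degree of freedom is the disagreement between the diets. Because limma moderates the variance of a gene with that of all genes, 4.12 prior degrees of freedom were added. An SE thus rests more on the other genes than on the gene's own disagreement between the diets.

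All values below come from the processed signal of a spot, its intensity after background subtraction, in arbitrary units. A level is that signal in log2, set against the 75th percentile of the array's spots, and a difference is a level on one array minus that on another. The probes differ in how brightly they bind, so levels are not compared between genes or between probes. The error given with a signal is the one the extraction software attached to the spot. It was close to 10% of the signal for bright spots, which for a difference of 2 arrays is 0.20 on the log2 scale. Probes spotted more than once on an array gave a second measure. Pairs of their spots differed with a SD of 0.093 in log2 (294 probes), and of 0.41 below a signal of 32 (7 probes). Neither measure holds the differences between mice. The 75th percentile of the 4 arrays lay between 213 and 296, and 53.0% to 57.0% of 59305 spots were well above background. In whole liver RNA, fewer cells of a type and less RNA per cell cannot be told apart.

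The sequences before the first bases of Mboat7 and its neighbour show how closely the 2 genes are packed. Mboat7 and Tmc4 lie on the minus strand of mouse chromosome 7, and the stretch that precedes the start of Tmc4 begins inside the annotated end of Mboat7. The windows below run from 250 bases before to 50 bases after each annotated start (RefSeq, GRCm38.p6), 5′ to 3′ on the gene's own strand. In the Mboat7 window (chr7:3692937-3693236) capitals mark the only GC box, read on the other strand. In the Tmc4 window (chr7:3677504-3677803) capitals mark the 15 bases that belong to Mboat7.

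Mboat7: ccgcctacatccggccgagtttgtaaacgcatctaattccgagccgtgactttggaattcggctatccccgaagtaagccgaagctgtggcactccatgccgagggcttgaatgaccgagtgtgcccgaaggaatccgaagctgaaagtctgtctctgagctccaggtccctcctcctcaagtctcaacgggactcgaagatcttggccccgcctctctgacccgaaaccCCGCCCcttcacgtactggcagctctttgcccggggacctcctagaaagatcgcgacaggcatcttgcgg

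Tmc4: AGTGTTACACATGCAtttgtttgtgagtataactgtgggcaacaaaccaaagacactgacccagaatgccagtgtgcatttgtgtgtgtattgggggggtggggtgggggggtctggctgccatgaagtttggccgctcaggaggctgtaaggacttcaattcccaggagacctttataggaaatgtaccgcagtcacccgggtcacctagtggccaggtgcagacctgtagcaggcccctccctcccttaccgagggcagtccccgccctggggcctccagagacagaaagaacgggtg

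Mboat7 was lower in LKO than in F/F on both diets, by a similar amount. Its only probe gave a signal of 1102 (error 110) in F/F on chow, 861 (error 86.1) in LKO on chow, 1181 (error 118) in F/F on HFD and 1100 (error 110) in LKO on HFD. As levels these were 2.31, 2.01, 2.17 and 1.90, so that both LKO arrays lay below both F/F arrays. The signal of LKO on HFD was nearly that of F/F on chow, and its level is lower because the 75th percentile of that array was higher, at 296 against 222. LKO was 1.23-fold lower than F/F on chow, a difference of -0.30 with a software error of 0.20, and 1.21-fold lower on HFD, a difference of -0.27 with the same error. Both differences exceeded the SD of 0.13 between replicate spots of this brightness. The difference on HFD and that on chow were 0.03 apart. Over both diets it was -0.29 (moderated SE 0.14), lower in 2 of 2 diets, and did not pass limma's test (adjusted p = 0.75). In that test 0 of 13981 genes (0%) passed an adjusted p of 0.05, with 1050 genes under an unadjusted 0.05 and a smallest adjusted p of 0.20. The other 6 genes with a value had adjusted p of 0.89 or more in limma.

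Markers of some cells were lower in LKO on both diets too. Of 8 neutrophil markers 7 had a value, and 6 of these were lower on each diet, with medians of -0.42 on chow and -0.30 on HFD. Their summed signal was 4811 in F/F on chow, 2438 in LKO on chow, 5971 in F/F on HFD and 4179 in LKO on HFD, and Ngp was not well above background on any array. Red blood cell markers were lower in 4 of 4 with a value on each diet, with medians of -0.02 on chow and -0.95 on HFD. Hepatocyte markers were level on chow, with a median of -0.00, and lower on HFD, with a median of -0.20 and 11 of 12 lower. The part of these lists in the Mboat7 values was not tested.

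A difference of this size was common on these arrays. Of 14185 genes measured on both chow arrays, 8.77% were as low or lower in LKO, and of 14677 measured on both HFD arrays 19.5% were. As low on both diets were 377 of 13981 genes, or 2.70%. The floxed exons are exons 2 to 4. Where the probe lies against them was not determined here, so the probe's signal is no check of the deletion. The paper reports, from a western blot of younger mice, that LPIAT1 protein was depleted in LKO liver. Between the diets the Mboat7 probe differed less: HFD minus chow was -0.15 in F/F and -0.12 in LKO, each within the software error of 0.20. With the authors' own table of values these became -0.01 and 0.03.

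**Figure D1:**
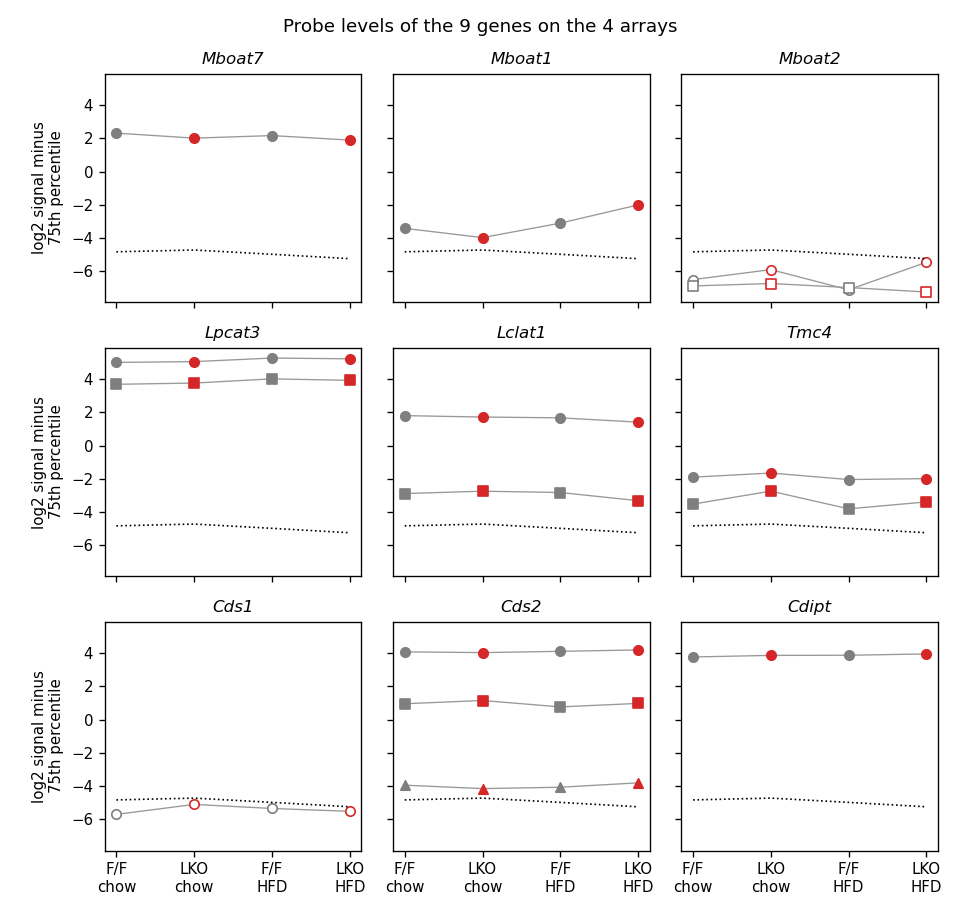
Level of each of the 15 probes (vertical axis: log2 signal less the 75th percentile of the array) on the 4 arrays (grey, F/F; red, LKO; circles, squares and triangles are different probes of a gene). Filled symbols are well above background, open symbols are not, and the dotted line is the lowest signal well above background on each array; levels are to be read within a probe, where Mboat7 sits lower in LKO on both diets and Mboat1 climbs from -3.97 in LKO on chow to -2.01 in LKO on HFD.

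The 4 arrays hold few points for a profile, and many genes shared that of Mboat7. Measured by the root mean square difference of levels centred on their mean over the 4 arrays, the 3 closest of 13981 genes were Myo3b (0.02, an unconventional myosin with a kinase domain), Lhfpl1 (0.02) and 4930524O05Rik (0.02). Their LKO minus F/F differences were -0.28, -0.32 and -0.31 on chow and -0.26, -0.30 and -0.25 on HFD. In all, 582 genes, or 4.16%, lay within 0.093 of the Mboat7 profile, the SD of replicate spots.

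Of the genes beside Mboat7 on chromosome 7, none of the 6 with a value was as low in LKO as Mboat7 on either diet. Of the 5 annotated genes on each side, Gm15927, Mir3572, Pira1 and Gm15930 had no matched probe. Leng1 differed by -0.22 on chow and 0.05 on HFD. Cnot3, a scaffold of the CCR4-NOT deadenylase, differed by -0.19 and -0.07, lower on both diets but within the software error. On the other side, Tsen34, a subunit of the tRNA splicing endonuclease, differed by 0.09 and -0.09. Rps9, a protein of the small ribosomal subunit, differed by 0.05 and 0.24. Pirb, a receptor of myeloid and B cells, was higher in LKO on both diets, by 0.25 and 0.49.

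Tmc4, the nearest neighbour, encodes a member of the transmembrane channel-like family. Its brighter probe gave 59.4 in F/F on chow, 68.0 in LKO on chow, 63.9 in F/F on HFD and 74.6 in LKO on HFD. Its second probe gave 19.3, 31.95, 18.8 and 28.3 in the same order. Both probes were thus brighter in LKO than in F/F on each diet, in the opposite direction to Mboat7. After scaling, LKO minus F/F was 0.25 on chow and 0.06 on HFD for the brighter probe, with software errors of 0.21 and 0.21. For the second probe it was 0.78 and 0.42, with errors of 0.25 and 0.26, which is below 2-fold. The second probe lay below a signal of 32 on all arrays, where replicate spots differ by a SD of 0.41, and after normexp background correction it differed by 0.29 and 0.02. HFD minus chow was negative for both probes in both genotypes, at -0.14 and -0.34 for the brighter probe and -0.28 and -0.65 for the second, in F/F and LKO.

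Of the 7 genes with a value, none differed by 2-fold or more between LKO and F/F on chow, where 2.14% of all genes did. On HFD, 1 of 7 did, against 4.26% of all genes, and this was Mboat1, which was higher in LKO, as were 2.36% of all genes by 2-fold or more. Leaving out Mboat7 and Mboat1, the brightest probes of the other 5 genes differed between -0.08 and 0.25 on chow and between -0.26 and 0.08 on HFD. On each diet 4 of these 5 lay within the software error of the difference, the exceptions being Tmc4 on chow and Lclat1 on HFD.

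**Figure D2:**
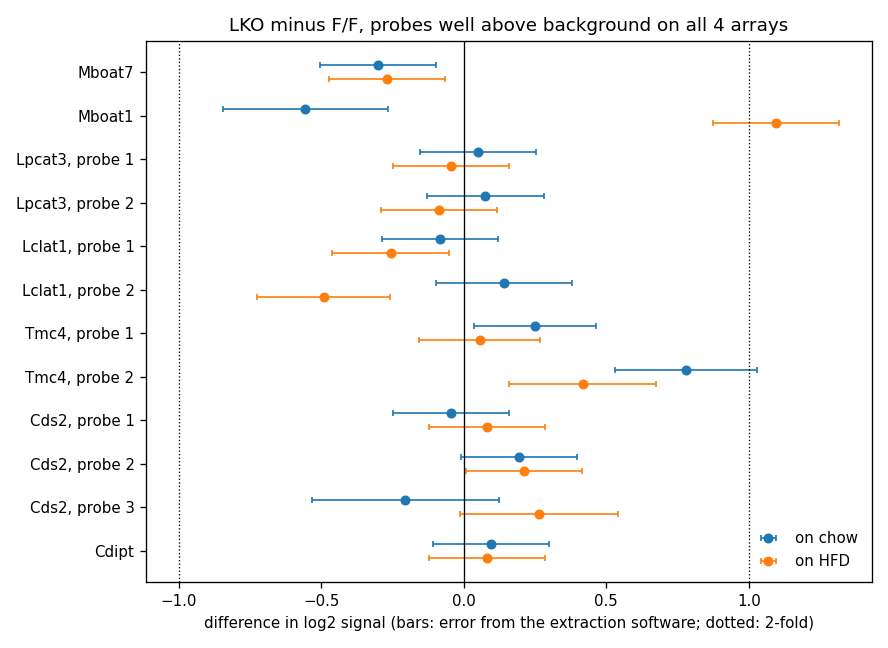
LKO minus F/F in log2 signal on chow (blue) and on HFD (orange) for the 12 probes that were well above background on all 4 arrays, with bars for the error from the extraction software and dotted lines at a 2-fold difference. Mboat7 lies left of 0 on both diets at -0.30 and -0.27, and Mboat1 at -0.56 on chow and 1.10 on HFD, the one point beyond 2-fold.

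Mboat1 encodes an acyltransferase that prefers oleate and acts mainly on lysophosphatidylserine and lysophosphatidylethanolamine. The window around its start is printed because it was the only one of the 9 genes past 2-fold in any comparison. Capitals mark GC boxes and a CCAAT box in the window (chr13:30136240-30136539, plus strand, RefSeq GRCm38.p6).

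Mboat1: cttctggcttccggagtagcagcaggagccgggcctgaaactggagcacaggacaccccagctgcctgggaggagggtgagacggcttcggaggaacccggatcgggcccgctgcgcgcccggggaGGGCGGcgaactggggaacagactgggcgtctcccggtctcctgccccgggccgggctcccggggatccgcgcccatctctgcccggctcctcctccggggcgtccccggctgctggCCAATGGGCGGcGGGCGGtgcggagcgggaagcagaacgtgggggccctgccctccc

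These letters, GGGCGG 3 times and CCAAT once on either strand, occur at least once in 35.7% and 37.4% of the 32851 windows of the same length. TATAAA, which 13.6% of windows hold, was in the Tmc4 window alone among the 9 windows of 8 genes, and the set had no window for Cdipt. The Mboat7 window held no CCAAT. A match is a description of letters only.

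The probe of Mboat1 was dim. Its signal was 20.8 (error 2.60) in F/F on chow, 13.6 (error 2.13) in LKO on chow, 30.6 (error 3.49) in F/F on HFD and 73.5 (error 7.51) in LKO on HFD. The array of LKO on HFD thus held the highest value and that of LKO on chow the lowest. Between the genotypes the difference was -0.56 on chow (software error 0.29) and 1.10 on HFD (software error 0.22), a 2.14-fold higher signal in LKO. As high or higher on HFD were 1.46% of genes measured on both arrays. HFD minus chow was 0.31 in F/F and 1.97 in LKO, and 1.13% of genes were as high or higher in LKO. The difference between the genotypes on HFD exceeded that on chow by 1.65, which was not tested.

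This value was smaller with normexp background correction, whose offset of 50 exceeds the Mboat1 signal on every array but that of LKO on HFD. Shrinkage by the offset and any effect of the background estimate were not separated. With normexp, which adds an offset to every spot and so shrinks the differences of dim ones, LKO minus F/F of Mboat1 was -0.08 on chow and 0.44 on HFD, under 2-fold on both. HFD minus chow became 0.00 in F/F and 0.53 in LKO, the latter under 2-fold too. Under the other 4 ways of scaling it stayed between -0.60 and -0.54 on chow and between 1.06 and 1.13 on HFD.

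Markers of exocrine pancreas moved with Mboat1 between the genotypes. All 12 markers were well above background on all 4 arrays, none at or near 0. Their summed signal was 5835 in F/F on chow, 3288 in LKO on chow, 3685 in F/F on HFD and 15293 in LKO on HFD. All 12 were lower in LKO on chow, with a median difference of -1.09, and all 12 were higher in LKO on HFD, with a median of 1.83. Between the diets they moved with Mboat1 in LKO, where the median of HFD minus chow was 2.05, and against it in F/F, where all 12 were lower on HFD and the median was -0.74 while Mboat1 differed by 0.31. Markers of cholangiocytes, which line the bile ducts, had medians of -0.33 on chow (4 of 5 lower) and 0.46 on HFD (5 of 6 higher). For HFD minus chow their medians were 0.41 in F/F (4 of 6 higher) and 0.65 in LKO (5 of 6 higher), the signs of Mboat1 in both. The summed signal of these 8 markers was 1087, 959, 3526 and 4525 in the same order of arrays. Most of that sum was Spp1, at 840, 796, 3314 and 4158, so it mainly follows that gene. Sox9 went the other way in F/F, with HFD minus chow at -1.93. On every array 4 of 8 cholangiocyte markers passed the background call, and Prom1 passed it on none. T and B cell markers had medians of -0.11 on chow (7 of 7 lower) and 0.41 on HFD (6 of 8 higher), and of 0.65 for HFD minus chow in LKO and -0.20 in F/F. Their summed signal was 4785, 4108, 4168 and 4330, and Cd79a was not well above background on any array. Adipocyte markers had medians of -0.18 on chow (5 of 6 lower) and 0.26 on HFD (3 of 5 higher). Their medians for HFD minus chow were -0.61 in F/F and -0.53 in LKO, against the signs of Mboat1. The part of any of these lists in the Mboat1 result was not tested. The 12 hepatocyte markers were all well above background on every array. Macrophage markers had medians of 0.12 on chow and 0.69 on HFD, where all 10 were higher.

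**Figure D3:**
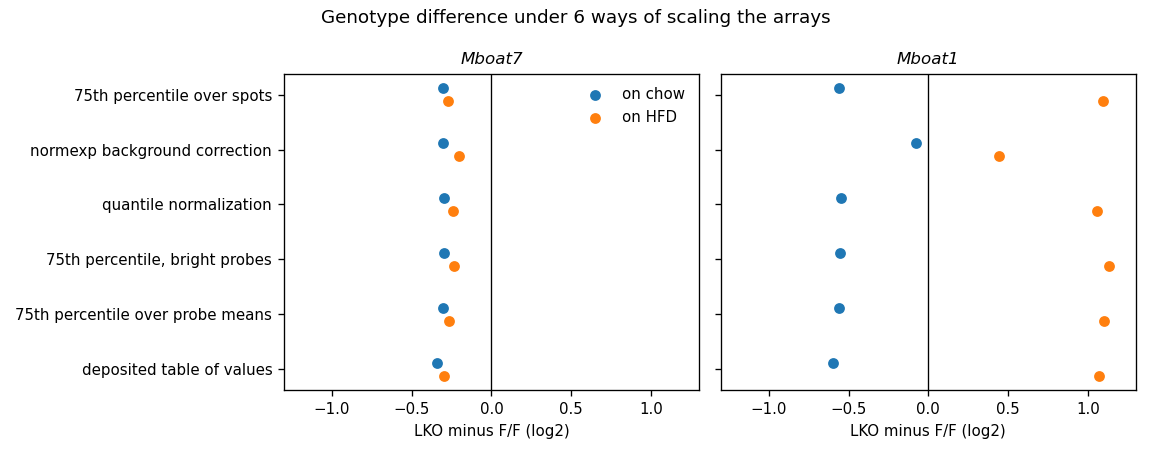
LKO minus F/F in log2 signal for Mboat7 (left) and Mboat1 (right) under 6 ways of treating the same 4 arrays, on chow (blue) and on HFD (orange). Mboat7 stays between -0.34 and -0.21 in all of them, and Mboat1 moves towards 0 under normexp, to -0.08 on chow and 0.44 on HFD.

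Mboat2, the closest relative of Mboat1, could not be measured. Its 2 probes gave signals between 1.88 and 6.72, with none well above background on any array. The lowest signals well above background were 7.80 to 8.35 on the 4 arrays, so no fold is given.

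Lpcat3, which incorporates polyunsaturated acyl chains and is a target of the liver X receptors, differed little between the genotypes and was higher on HFD. Its brighter probe gave 7135 in F/F on chow, 7099 in LKO on chow, 10161 in F/F on HFD and 11059 in LKO on HFD. The second probe gave 2863, 2903, 4265 and 4506. In both probes the 2 HFD arrays lay above the 2 chow arrays, and the genotypes lay close together on each diet. In LKO against F/F, the differences were 0.05 and 0.08 on chow and -0.05 and -0.09 on HFD, all within the software error of 0.20. HFD minus chow was 0.26 and 0.33 in F/F and 0.17 and 0.16 in LKO, so that the F/F values exceeded that error and the LKO values did not. A difference of 0.26 or more was seen in 25.7% of 14282 genes in F/F, and one of 0.17 or more in 28.9% of 14261 genes in LKO.

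Lclat1 differed more between the genotypes on HFD than on chow. Its brighter probe gave 775 in F/F on chow, 703 in LKO on chow, 839 in F/F on HFD and 788 in LKO on HFD. Its second, dim probe gave 30.03, 31.9, 37.2 and 29.7. On HFD the genotypes differed by -0.26 for the brighter probe and -0.49 for the second, lower in both. On chow the probes had opposite signs, at -0.08 and 0.14. HFD minus chow in LKO was -0.31 and -0.57, and in F/F -0.13 and 0.06. The brighter probe's value on HFD was as low or lower in 20.7% of genes.

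Of the synthesis arm of the pathway, Cdipt differed little between the genotypes and Cds2 gave small differences that varied between its probes. Cdipt, the PI synthase, gave 3034 in F/F on chow, 3119 in LKO on chow, 3868 in F/F on HFD and 4594 in LKO on HFD. Its 4 differences, LKO minus F/F on chow and HFD and HFD minus chow in F/F and LKO, were 0.10, 0.08, 0.10 and 0.09, each within the software error of 0.20.

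Cds2, the CDP-diacylglycerol synthase detected here, had 3 probes, the third matched to another transcript record than the first and second. The brightest gave 3760 in F/F on chow, 3504 in LKO on chow, 4560 in F/F on HFD and 5422 in LKO on HFD. The second gave 431, 475, 448 and 583, and the third 14.4, 12.0, 15.7 and 21.2. On HFD all 3 were higher in LKO, by 0.08, 0.21 and 0.26, the second just beyond its software error of 0.20. On chow they had no common sign, at -0.05, 0.19 and -0.21. HFD minus chow was 0.03, -0.19 and -0.12 in F/F and 0.16, -0.17 and 0.35 in LKO. No difference of any Cds2 probe reached 1.5-fold.

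Cds1, the other CDP-diacylglycerol synthase, gave signals of 4.27, 6.22, 6.48 and 6.46 in the same order of arrays and was not well above background on any, so that it has no value.

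The probes of 3 genes thus differed in sign or size. Over 4850 genes with more than 1 probe measured on chow, the difference LKO minus F/F varied between 2 probes of a gene with a SD of 0.28, and over 5127 genes on HFD with a SD of 0.32. The gap between the 2 Tmc4 probes and that between the 2 Lclat1 probes are read against these values.

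Between the diets, most of the 9 genes were less than 2-fold apart. In F/F none of the 7 with a value differed by 2-fold or more between HFD and chow, where 8.15% of all genes did. In LKO 1 of 7 did, Mboat1, against 12.2% of all genes, and with normexp, at 0.53, it did not. It was higher on HFD, as were 8.12% of all genes by that much. By their brightest probes, Mboat1, Lpcat3, Cds2 and Cdipt were higher on HFD in both genotypes, and Mboat7, Lclat1 and Tmc4 were lower in both, except that the authors' table turned Mboat7 in LKO to 0.03 and Lclat1 in F/F to 0.00 and the mean of all probes turned Cds2 in F/F to -0.09. The median of all genes was -0.02 in F/F and -0.07 in LKO.

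**Figure D4:**
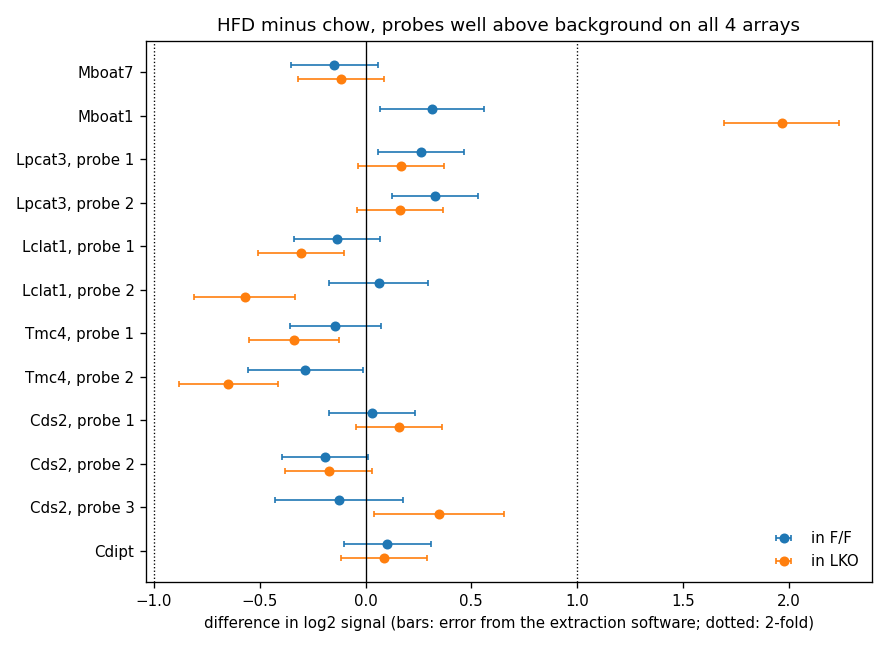
HFD minus chow in log2 signal in F/F (blue) and in LKO (orange) for the same 12 probes, with bars for the error from the extraction software and dotted lines at a 2-fold difference. Mboat1 in LKO, at 1.97, is the only point beyond 2-fold, and both probes of Lpcat3 lie right of 0 in both genotypes.

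Around the 9 genes, 51 others in 7 lists of related enzymes were read in the same way, and 47 had a value in each comparison. Between LKO and F/F, 27 were higher and 20 lower on chow, and 24 were higher and 23 lower on HFD, none by 2-fold or more. Their medians were 0.05 on chow and 0.01 on HFD, against 0.00 and -0.03 for all genes. At 1.5-fold, 2 were higher and 2 lower on chow, and 4 were higher and none lower on HFD, where 6.98% and 14.1% of all genes passed in either direction. Of all genes, 50.7% were higher in LKO on chow and 45.9% on HFD. Among the list members past 1.5-fold, 3 are known only as bounds, being well above background on 1 array of the pair. The dim array then counts at its own signal or at the lowest signal well above background, whichever is higher.

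Among the other lysophospholipid acyltransferases, 5 of 6 were higher in LKO on chow (median 0.11) and 5 of 7 on HFD (median 0.19). The one with the largest difference measured on both arrays was Lpcat2, which makes phosphatidylcholine and platelet-activating factor in inflammatory cells. Its signal was 70.9 in F/F on chow, 70.5 in LKO on chow, 137 in F/F on HFD and 238 in LKO on HFD. The difference was 0.05 on chow and 0.63 on HFD. Lpcat2b was at least 1.63-fold higher in LKO on HFD, where alone it was well above background.

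Of the other MBOAT enzymes, 3 of 5 were higher in LKO on chow (median 0.03) and 2 of 5 on HFD (median -0.01). Soat1, which esterifies cholesterol and is abundant in macrophages, gave 73.8, 84.6, 151 and 304 in the same order. It differed by 0.25 on chow and 0.84 on HFD. Lpcat2 and Soat1 were the brightest in LKO on HFD, as were the macrophage markers, whose summed signal was 19234, 19379, 33794 and 57366, and their part was not tested.

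The enzymes of phosphatidic acid synthesis and use, which supply the substrate of CDS enzymes and the path to triglyceride (TG), were lower in LKO in 5 of 9 cases on chow (median -0.00) and in 8 of 9 on HFD (median -0.12). By mean signal over the 4 arrays, the brightest probes were those of Agpat2, which makes phosphatidic acid, and Gpat4, which makes lysophosphatidic acid. Agpat2 gave 22898, 20696, 27822 and 21710, and differed by -0.09 on chow and -0.53 on HFD. Gpat4 gave 13275, 12521, 10899 and 8946, and differed by -0.03 and -0.45. Gpam and Lpin2 differed by -0.22 and -0.20 on HFD. On HFD 11 of 12 hepatocyte markers were lower too, with a median of -0.20.

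The other makers and users of CDP-diacylglycerol, in the mitochondrial cardiolipin path, had medians of 0.03 on chow (2 of 4 higher) and 0.11 on HFD (3 of 4 higher). Ptpmt1 differed by 0.26 and 0.03, and Crls1, the cardiolipin synthase, by 0.09 and 0.18.

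Genes of inositol supply had medians of -0.08 on chow (5 of 8 lower) and -0.00 on HFD (4 of 8 lower). Slc5a3, a sodium and inositol cotransporter, was dim, with signals of 29.6, 18.3, 29.2 and 33.2, and differed by -0.64 on chow and 0.01 on HFD. Miox, which breaks inositol down, gave 8.47 in F/F on chow, which was not well above background, and 15.3 in LKO on chow. After scaling, LKO was 1.88-fold higher, which is no lower limit because the F/F signal is uncertain. On HFD Miox differed by 0.42.

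Arachidonate synthesis and activation was higher in LKO in 6 of 9 genes on chow and in 5 of 8 on HFD, with a median of 0.17 on both. Acsl4, the acyl-CoA synthetase that prefers arachidonate, gave 2408 in F/F on chow, 3157 in LKO on chow, 2649 in F/F on HFD and 5216 in LKO on HFD. It was higher in LKO on both diets, by 0.45 and 0.81. Fads2, the delta-6 desaturase that starts the synthesis of arachidonate from linoleate, gave 2549, 3965, 7252 and 10421, and was higher in LKO by 0.69 on chow and 0.36 on HFD. It was also higher on HFD, by 1.26 in F/F and 0.92 in LKO. Other members went the other way: Acsl1, a long-chain acyl-CoA synthetase, was lower in LKO by -0.38 on chow and -0.50 on HFD, and Elovl2, an elongase of long polyunsaturated chains, differed by 0.17 and -0.52. Acsl6 was at least 1.70-fold lower in LKO on chow, where LKO was not well above background.

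The phospholipases A, among them enzymes that act on PI, had medians of 0.18 on chow (4 of 6 higher) and 0.06 on HFD (4 of 6 higher). By mean signal over the 4 arrays, their brightest probes were those of Pnpla8 and Ddhd2, which differed by -0.05 and -0.16 on chow and by -0.30 and 0.05 on HFD. Pla2g6 went from 0.30 on chow to -0.53 on HFD.

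**Figure D5:**
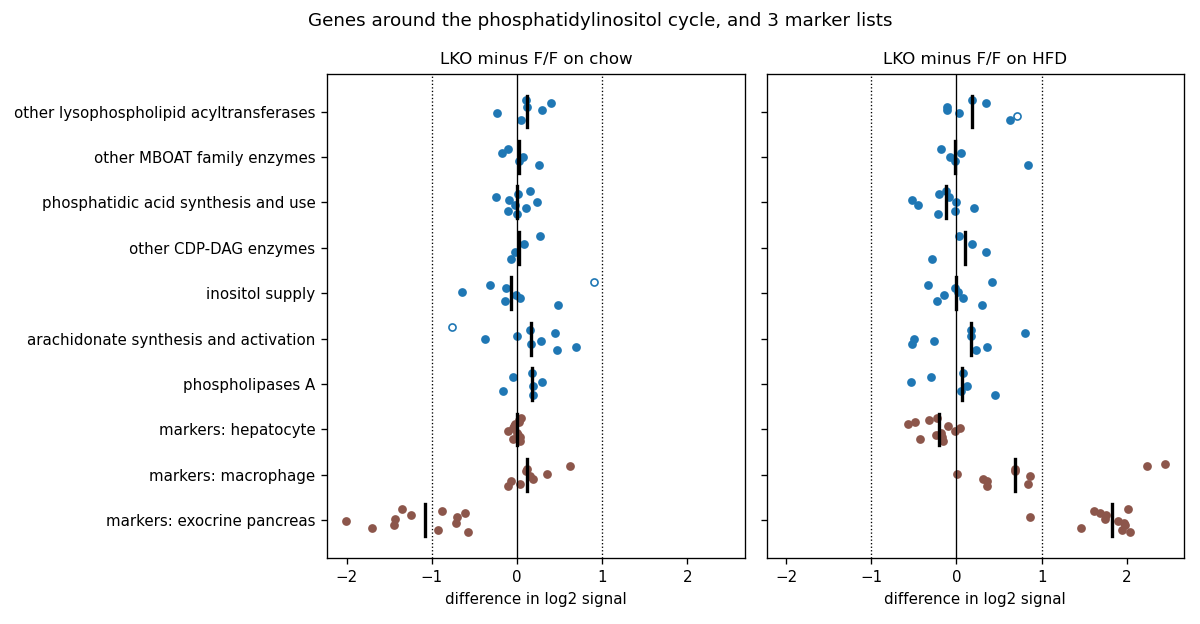
LKO minus F/F in log2 signal on chow (left) and on HFD (right) for each gene of the 7 lists of related enzymes (blue) and of 3 marker lists (brown); open points are bounds, thick bars are list medians and dotted lines mark 2-fold. The enzyme lists have medians between -0.12 and 0.19 with no gene beyond 2-fold, and the 12 exocrine pancreas markers lie left of 0 on chow and right of 0 on HFD.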

How the data were processed

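Gene expression was measured in 4 liver samples on SurePrint G3 arrays. The authors deposited the Cy3 intensity per spot from Agilent Feature Extraction (12.0.3.1, per the labels), background-subtracted and detrended, with its error and flags, and a table of intensity values that equals this signal times 1 factor per array (on chow 2.60 for F/F and 2.63 for LKO, on HFD 2.41 and 2.10; column medians 34.5, 33.2, 36.1 and 36.0). How the factor was made is not given in the sources used here. The labels and the paper's methods name different RNA kits.

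From the deposited intensity, log2 signal minus each array's 75th percentile over 59305 non-control spots was computed (Python 3.11.15, pandas 2.3.3, numpy 2.4.6). Spots of one probe were averaged without outliers, and no spot was saturated. Of 56605 probes, 33767 (59.7%) matched a gene of the RefSeq table (GRCm38.p6) through their transcript record. The brightest probe stood for a gene. Where a gene was too dim on 1 array of a pair it has a bound, and where on both no value. The number of arrays limits the precision, and differences within a diet or genotype were not tested. The difference between genotypes over both diets was tested with limma on 13981 genes well above background on all arrays, an alternative added after seeing the data. The steps were tested on simulated data. The members and the lists were chosen with earlier results of these data known. Genes named are the members, the 5 genes on each side of Mboat7, the 3 with the most similar profile and, per list, up to 4 genes well above background on both arrays and at least 1.5-fold apart between genotypes, or else the 2 brightest by mean signal. Lpcat2b, Miox, Acsl6, Acsl1, Elovl2, Pla2g6, Gpam and Lpin2 were named after their values were seen. Alternatives were normexp with offset 50 (limma 3.58.1, R 4.3.3), quantile normalization, 2 other forms of the percentile, the authors' table, the mean of all probes, no filter, and a 1.5-fold threshold. Figures were drawn with matplotlib 3.10.9.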

Additional observations from a re-analysis of the deposited data

Results flagged for a closer look

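Mboat1 went in opposite directions in the 2 diets. Its LKO minus F/F difference on HFD exceeded that on chow by 1.65 (log2), being lower in LKO on chow and higher on HFD, with 1 array for each condition, and this contrast was not tested. It was 0.52 with normexp background correction and between 1.60 and 1.69 under the other 4 ways of scaling. The probe was dim. Exocrine pancreas markers moved the same way between genotypes, with medians of -1.09 on chow and 1.83 on HFD. So did markers of cholangiocytes (-0.33 and 0.46), of T and B cells (-0.11 and 0.41) and of adipocytes (-0.18 and 0.26). For HFD minus chow in F/F, Mboat1 was 0.31 and the cholangiocyte median 0.41. There the medians of exocrine pancreas (-0.74), T and B cells (-0.20) and adipocytes (-0.61) had the other sign. In LKO Mboat1 was 1.97 and the adipocyte median -0.53. The part of these lists was not tested.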

How the results depend on the processing

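The labels number no replicates, so the arrays pair only by diet. With diet as a block in limma, an alternative chosen after seeing the data, the genotype difference of Mboat7 was -0.29 (adjusted p = 0.75), and 0 of 13981 genes passed an adjusted p of 0.05, with 1050 under an unadjusted 0.05. Over both diets Mboat1 was 0.27 (adjusted p = 0.96) and Tmc4 0.15 (adjusted p = 0.91). The difference of Mboat7 between LKO and F/F ranged from -0.34 to -0.29 on chow and from -0.30 to -0.21 on HFD over the 5 alternatives. The number of the 9 genes at least 2-fold apart between LKO and F/F on HFD went from 1 to 0 with normexp and to 2 with no filter, where Mboat2, not well above background on any array, was the second; between HFD and chow in LKO it went from 1 to 0 with normexp. Of 28 values of the members, taken by the brightest probe of each, 24 kept their sign under every alternative. The exceptions were Lclat1 on chow, Lclat1 and Cds2 for HFD minus chow in F/F, and Mboat7 for HFD minus chow in LKO. Of 188 alternative values, 152 moved by less than 0.093, the SD of replicate spots. Some alternatives could not move them. Leaving out the filter changes no gene well above background on every array, and the mean of all probes changes no gene with 1 probe. The authors' table shifted HFD minus chow of all genes by 0.14 in F/F and 0.15 in LKO. No filter shifted it by -0.14 in LKO. Over all genes, 321 were at least 2-fold apart on chow, 662 on HFD, 1252 by diet in F/F and 1859 by diet in LKO. With normexp these were 39, 179, 358 and 667, with no filter 1479, 1885, 2717 and 3420, and at 1.5-fold 1046, 2197, 3507 and 4136. None of 98 alternative values of the enzyme list medians between genotypes moved by more than 0.093, though 5 of 14 medians, each near 0, changed sign. For diet, 27 of 98 moved by more than 0.093, and 8 of 14 medians kept their sign. Naming probes by a gene name column was not run, because the spot tables used here carry transcript records only. Dim probes limit Mboat1, the second probes of Tmc4 and Lclat1 and the third of Cds2.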
